A study of Mus musculus with 19 samples.

Results

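Immediate early genes are transcribed within minutes of a stimulus without prior protein synthesis. The 39 symbols described here were listed by name from that class, and 38 of them were measured by a probe set that lists a single gene, out of 22180 genes in all. Fosl1, an AP-1 subunit, was left out because its only probe set also lists Ccdc85b. Transcripts were measured on Affymetrix whole-transcript arrays in 19 mouse hearts, 1 array per heart, from 300 ng of total RNA. Hearts were perfused outside the body through the aorta (the Langendorff preparation) for 20 min of stabilisation, left without flow for 20 min and reperfused for 20 min before freezing. The groups were wild-type C57Bl6J mice at ZT0, lights on (n = 7), wild-type C57Bl6J mice at ZT12, lights off (n = 7), and mice lacking Rev-erb alpha, also at ZT12 (n = 5), for which the labels name no strain. All hearts had gone through ischemia and reperfusion, so the values are levels after reperfusion and not inductions. Neither the age of the mice nor the form of the knockout allele is given in the labels, and no hearts of knockout mice at ZT0 were analysed here.

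In these genes a signal from outside the cell reaches factors already present in the cell. Kinase cascades activate serum response factor with its ternary complex partners, CREB and NF-kB, and the new transcripts encode AP-1, EGR, NR4A and KLF transcription factors together with phosphatases and mRNA decay factors that shut the response off. In the heart they are known to respond to stretch, to oxidative stress and to the return of flow, and their transcripts are short-lived. Rev-erb alpha, encoded by Nr1d1, is a nuclear receptor that represses transcription in the circadian clock, with Arntl as a textbook target.

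RefSeq promoter windows of the build GRCm38.p6, from 250 bases before to 50 bases after the annotated start, were found for 30 of the 38 genes and for 27025 genes in all. The windows below are those of Fos and of the genes whose values correlated most closely with it between hearts, as described further on, down to Btg2. Egr1 and Ier2 rank among them and are named only. The windows are printed up to the start. Capitals mark matches on either strand to the EGR site GCGNGGGCG, the cyclic AMP response element TGACGTCA, the TATA letters TATAAA, the CArG box bound by serum response factor, and the NF-kB site. A match that runs past the start, such as an NF-kB site in Nr4a1, is counted but not marked, and the Atf3 window holds no match to any of them. The CArG box can hold the TATA letters within it. The Fos window is chr12:85473640-85473889, plus strand, that of Fosb is chr7:19310046-19310295, minus strand, and that of Nr4a1 is chr15:101266596-101266845, plus strand. The Zfp36 window is chr7:28379229-28379478, minus strand, and that of Dusp1 is chr17:26508473-26508722, minus strand. The Atf3 window is chr1:191183334-191183583, minus strand, and that of Btg2 is chr1:134079156-134079405, minus strand.
Fos: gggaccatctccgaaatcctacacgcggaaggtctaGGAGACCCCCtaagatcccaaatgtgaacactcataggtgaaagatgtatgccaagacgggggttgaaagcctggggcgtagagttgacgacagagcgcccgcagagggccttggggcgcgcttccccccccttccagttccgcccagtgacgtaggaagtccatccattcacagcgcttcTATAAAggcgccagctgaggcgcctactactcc
Fosb: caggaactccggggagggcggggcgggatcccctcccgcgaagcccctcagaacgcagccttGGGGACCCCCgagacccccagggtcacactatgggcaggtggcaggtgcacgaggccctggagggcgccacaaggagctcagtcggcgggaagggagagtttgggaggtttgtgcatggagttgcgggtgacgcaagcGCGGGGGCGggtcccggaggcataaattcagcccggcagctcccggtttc
Nr4a1: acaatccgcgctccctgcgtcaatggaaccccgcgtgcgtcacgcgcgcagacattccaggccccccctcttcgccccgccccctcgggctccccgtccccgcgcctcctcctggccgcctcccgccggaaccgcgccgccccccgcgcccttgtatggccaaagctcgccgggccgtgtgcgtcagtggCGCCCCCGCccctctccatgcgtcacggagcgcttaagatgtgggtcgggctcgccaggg
Zfp36: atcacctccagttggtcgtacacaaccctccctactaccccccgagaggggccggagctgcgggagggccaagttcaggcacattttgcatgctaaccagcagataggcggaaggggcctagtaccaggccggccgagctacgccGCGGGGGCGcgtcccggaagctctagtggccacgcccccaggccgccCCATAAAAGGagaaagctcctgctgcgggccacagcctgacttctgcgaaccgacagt
Dusp1: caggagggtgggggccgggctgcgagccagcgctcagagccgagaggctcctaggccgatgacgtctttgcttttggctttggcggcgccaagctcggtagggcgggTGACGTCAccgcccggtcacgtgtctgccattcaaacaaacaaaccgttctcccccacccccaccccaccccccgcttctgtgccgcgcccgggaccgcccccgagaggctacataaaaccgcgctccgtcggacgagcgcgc
Atf3: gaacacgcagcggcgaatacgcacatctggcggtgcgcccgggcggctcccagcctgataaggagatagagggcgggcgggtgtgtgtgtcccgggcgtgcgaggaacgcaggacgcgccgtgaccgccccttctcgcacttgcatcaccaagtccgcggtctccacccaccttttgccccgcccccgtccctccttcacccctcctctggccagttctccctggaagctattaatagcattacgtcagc
Btg2: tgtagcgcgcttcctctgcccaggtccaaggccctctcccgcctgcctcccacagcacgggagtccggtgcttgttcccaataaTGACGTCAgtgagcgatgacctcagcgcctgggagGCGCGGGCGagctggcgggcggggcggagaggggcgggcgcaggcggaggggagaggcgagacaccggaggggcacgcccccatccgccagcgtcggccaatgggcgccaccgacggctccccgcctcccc

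The EGR letters stood in the windows of 13 of the 30 genes (43.3%), against 6.27% of all genes with a window. They included Fosb, Nr4a1, Nr4a2, Klf2, Klf4, Btg2 and Zfp36. The NF-kB site stood in 8 of 30 (26.7%, against 5.14% of all genes), among them Fos, Fosb, Ier3 and Tnfaip3. The cyclic AMP response element stood in 3, Maff, Dusp1 and Btg2 (10%, against 2.03%), and the CArG box in 3, Egr2, Dusp5 and Zfp36 (10%, against 1.81%). The TATA letters stood in 6 (20%, against 15.7%) and the AP-1 site TGANTCA in 2, Csrnp1 and Tnfaip3 (6.67%, against 8.97%). The members' windows were richer in G and C, with a median of 63.3% against 52.7% over all windows, and the EGR letters are themselves rich in G and C. A match describes letters and is not evidence of binding. Letters farther than 250 bases before the start were not searched, so a gene without a match, such as Fos for the CArG box, may hold one there.

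The values are log2 summaries made by the authors with RMA, so a difference of 1 is a 2-fold change. Array medians lay between 3.25 and 3.32, array correlations between 0.972 and 0.985, and the number of hearts limits the precision. Each probe set has its own response, so levels of different genes are not set against each other. As a check of the labels, Nr1d1 itself averaged 6.15 ± 0.31 (SD, n = 7) at ZT0, 6.74 ± 0.30 (n = 7) at ZT12 and 6.38 ± 0.08 (n = 5) in the knockout. Where its probes lie relative to the deleted part is not given in the sources used here, so this level checks nothing. Arntl averaged 7.27, 4.08 and 6.54 in the same order, higher in the knockout than in wild type at ZT12 by 2.45 (limma adjusted p = 1.24e-12) with no overlap between hearts. Hearts differed in Sln, which encodes sarcolipin of atrial muscle. In 4 hearts, WT ZT12 replicate 5 and knockout replicates 2, 4 and 5, it lay between 3.64 and 5.80. The other hearts lay at 8.48 or above. Sln is 1 of 5 atrial markers measured, none of which passed by limma between groups. Differences of the 5 ran from -2.79 to -0.29 in wild type between the times. They ran from -1.998 to -0.42 in the knockout against ZT12, and from -4.58 to -0.86 in the knockout against ZT0. Whether hearts high in Sln were alike in the other atrial markers was not tested. Markers of cardiomyocytes were above the median of all genes, 8 of 8, and those of neutrophils (4 of 4) and lymphocytes (4 of 4) were below it. In whole hearts, fewer cells of a type and less RNA per cell cannot be told apart.

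Hearts of the same group differed from each other in most of these genes more than they did in a typical gene. The median within-group SD of the 38 genes was 0.30 on the log2 scale, against 0.18 over all 22180 genes. It was above the median of all genes for 36 of the 38 and above the 90th percentile, 0.29, for 19. The largest SDs belonged to Fosb (0.59), Socs3 (0.51), Egr1 (0.50), Gadd45g (0.49) and Tnfaip3 (0.46). The smallest belonged to Egr4 (0.13), Dusp2 (0.17) and Klf6 (0.19).

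Of the AP-1 subunits, leucine-zipper factors that bind DNA as pairs of Fos and Jun proteins, Fos ran from 7.56 to 8.54 at ZT0 with a median of 8.16. At ZT12 it ran from 7.10 to 8.60 with a median of 8.22. In the 5 knockout hearts it was 8.35, 8.42, 7.37, 8.06 and 8.86. The 3 groups overlapped throughout, and the lowest and the highest heart of all were both at ZT12, a wild-type heart at 7.10 and a knockout heart at 8.86. Fosb, a close relative of Fos, ran from 6.96 to 8.10 (median 7.65) at ZT0 and from 6.62 to 8.70 (median 7.91) at ZT12. Its knockout values were 8.28, 7.92, 6.78, 7.43 and 8.59. The same hearts as for Fos were the lowest in each group, WT ZT0 replicate 2, WT ZT12 replicate 5 and knockout replicate 3. Jun, the main partner of Fos, ran from 9.59 to 10.44 (median 10.11) at ZT0 and from 9.78 to 10.40 (median 10.30) at ZT12. In the knockout Jun was 10.16, 10.26, 9.37, 10.32 and 10.38, with replicate 3 apart below the others. Junb, which competes with Jun for partners, had medians of 6.93 at ZT0, 7.13 at ZT12 and 7.03 in the knockout, and overlapped between all groups.

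**Figure D1:**
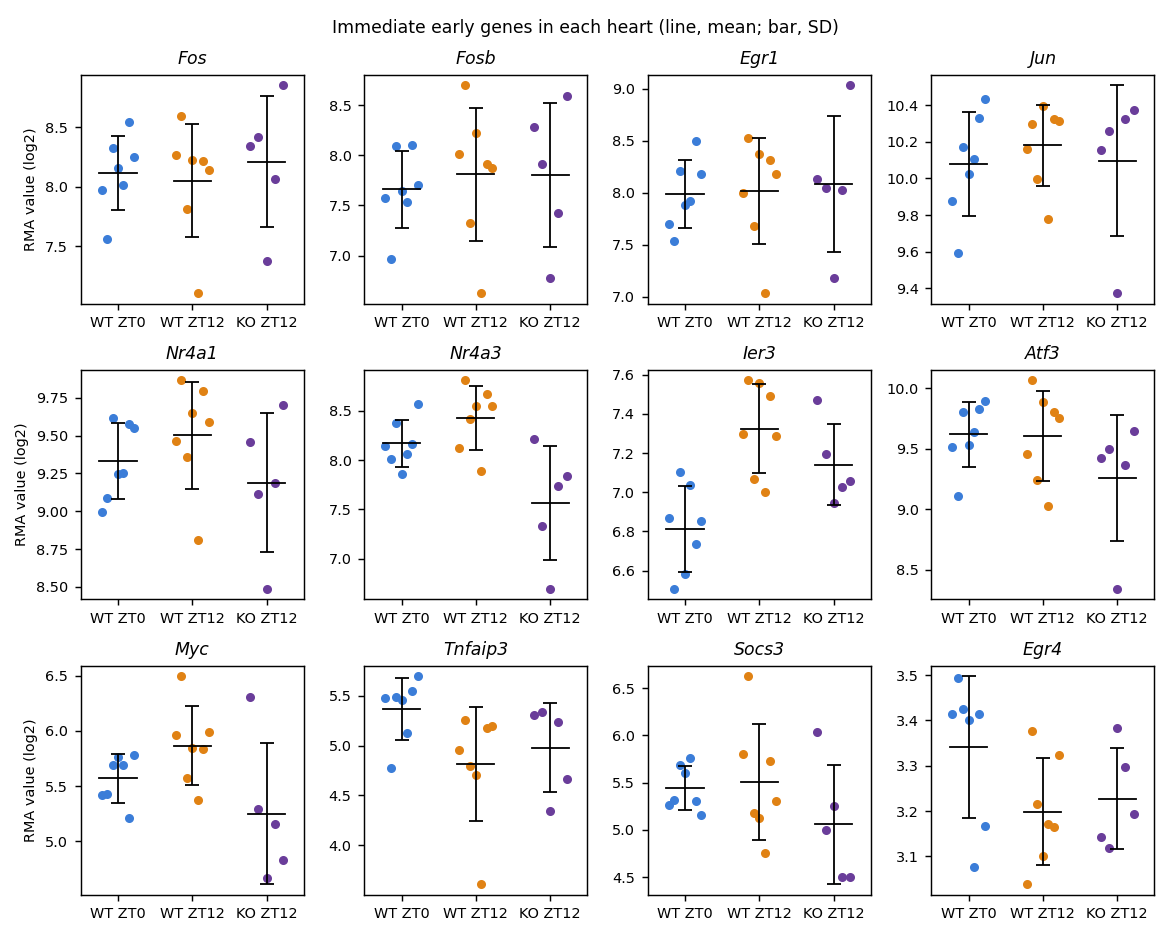
RMA values (log2, vertical axis) of 12 immediate early genes in each heart, by group on the horizontal axis, with 1 point per heart, a line at the mean and a bar for the SD. Fos overlaps throughout, Ier3 is higher at ZT12 (mean 7.32 against 6.81 at ZT0), and Nr4a3 averages 7.56 in the knockout against 8.43 in wild type at ZT12.

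Of the EGR zinc-finger factors, Egr1 ran from 7.53 to 8.49 (median 7.92) at ZT0 and from 7.03 to 8.53 (median 8.18) at ZT12. Knockout values of Egr1 were 8.14, 8.04, 7.18, 8.02 and 9.04, so its SD was largest in the knockout (0.66, against 0.33 at ZT0 and 0.51 at ZT12) and the groups overlapped. Egr2, a relative known from nerve and immune cells, had medians of 6.76 at ZT0, 6.81 at ZT12 and 6.77 in the knockout. Egr4 had group means of 3.34, 3.20 and 3.23, near the array medians, which leaves little room to see a difference.

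The NR4A genes encode orphan nuclear receptors that need no ligand and are set by their own transcription. Nr4a1 (Nur77) ran from 8.99 to 9.62 (median 9.25) at ZT0 and from 8.81 to 9.86 (median 9.59) at ZT12. In the knockout it was 9.46, 9.11, 8.49, 9.18 and 9.71, overlapping both wild-type groups. Nr4a3 (Nor-1) ran from 7.86 to 8.57 (median 8.15) at ZT0 and from 7.89 to 8.81 (median 8.55) at ZT12. Knockout values of Nr4a3 were 8.21, 7.33, 6.69, 7.74 and 7.84. Only replicate 1 of the knockout lay within the wild-type ZT12 range, and the other 4 were below all wild-type hearts of both times.

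Of the other transcription factors, Atf3, a stress-induced member of the ATF/CREB family, ran from 9.11 to 9.89 (median 9.64) at ZT0 and from 9.03 to 10.06 (median 9.76) at ZT12. Knockout values of Atf3 were 9.42, 9.50, 8.34, 9.37 and 9.64, with replicate 3 below every other heart. Myc, a factor that drives growth, had medians of 5.69 at ZT0 and 5.84 at ZT12, and was 6.30, 5.29, 4.66, 5.16 and 4.83 in the knockout. In Myc the knockout hearts were spread more widely (SD 0.64) than the wild-type hearts (0.22 at ZT0 and 0.36 at ZT12), with 1 high heart and 4 low ones. Among the immediate early response (IER) genes, Ier3, which encodes a small protein known to restrain cell death, ran from 6.51 to 7.10 (median 6.85) at ZT0 and from 7.0005 to 7.57 (median 7.30) at ZT12. Its knockout values were 7.47, 7.197, 6.94, 7.03 and 7.05. The wild-type groups overlapped only between 7.0005 and 7.1041.

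Among genes that shut signalling off, Tnfaip3, which encodes the NF-kB inhibitor A20, ran from 4.77 to 5.70 (median 5.48) at ZT0 and from 3.61 to 5.25 (median 4.95) at ZT12. In the knockout it was 5.31, 5.33, 4.35, 5.24 and 4.67, inside the span of the wild-type hearts. Socs3, an inhibitor of cytokine receptor signalling, was 6.03, 4.99, 5.25, 4.51 and 4.50 in the knockout and ran from 5.16 to 5.76 at ZT0 and from 4.75 to 6.63 at ZT12. Its ZT0 hearts were close together, and its ZT12 hearts of either genotype were not. Jund, Dusp6, Socs3 and Rgs2 each had a second, dimmer probe set, which correlated with the one used at 0.365, 0.109, 0.507 and -0.020. The second Socs3 probe set averaged 3.01 at ZT0, 3.06 at ZT12 and 3.28 in the knockout. The one used averaged 5.44, 5.50 and 5.06, so its lower knockout mean was not seen in both.

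The remaining genes overlapped between all groups as well. Fosl2 and Jund, the less inducible AP-1 subunits, had medians of 6.82 and 7.53 at ZT0, 6.90 and 7.64 at ZT12, and 6.61 and 7.24 in the knockout. Nr4a2 (Nurr1) had medians of 6.45 at ZT0 and 6.72 at ZT12, and in the knockout 1 heart stood at 7.198 above 4 between 5.94 and 6.16. Egr3 had medians of 5.22, 5.25 and 5.18. Of the KLF zinc-finger factors, Klf2, which responds to flow in endothelium, had an SD of 0.11 at ZT0, Klf4 one of 0.08, Klf6 one of 0.15 and Klf10 one of 0.35. At ZT12 their SDs were 0.33, 0.32, 0.18 and 0.20. Klf10 ran from 5.11 to 6.22 at ZT0 and from 5.68 to 6.34 at ZT12, and 4 of its knockout hearts lay between 5.32 and 5.55 with the other at 6.07.

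Among the growth arrest and mRNA decay genes, Btg2, which slows proliferation, had medians of 8.46 at ZT0, 8.82 at ZT12 and 8.61 in the knockout. Zfp36 had medians of 8.31, 8.36 and 8.34 in that order, with a range at ZT12 from 7.07 to 9.10. Gadd45b ran from 6.59 to 7.58 at ZT0 and from 6.92 to 8.13 at ZT12, and in the knockout it was 7.51, 7.12, 6.20, 7.11 and 7.15. Gadd45g, its stress-sensor relative, had medians of 7.39, 7.45 and 7.30. The phosphatase genes Dusp1, Dusp2, Dusp5 and Dusp6 had means of 9.04, 4.39, 5.49 and 6.55 at ZT0, 9.14, 4.24, 5.39 and 6.53 at ZT12, and 9.14, 4.26, 5.38 and 6.82 in the knockout. No phosphatase group stood apart from another. Csrnp1, a nuclear factor induced by AXIN1, was close together at ZT0 (4.98 to 5.28) and spread at ZT12 (4.82 to 6.29), and was 5.66, 5.26, 4.72, 5.03 and 5.41 in the knockout. Ier2 and Ier5 had medians of 6.42 and 6.42 at ZT0, 6.65 and 6.64 at ZT12, and 6.40 and 6.80 in the knockout. Sik1, a salt-inducible kinase, Nfkbiz, an NF-kB cofactor, and Rgs2, a brake on G protein signalling, had ZT0 medians of 7.04, 6.07 and 7.48 and ZT12 medians of 7.32, 5.87 and 7.36. In the knockout they were 7.18, 6.01 and 7.75. Maff, a small Maf factor, had medians of 4.70, 4.90 and 4.65 in the 3 groups, and Arc, a cytoskeletal protein of neurons, 5.20, 5.38 and 4.90.

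The first comparison asked whether levels after reperfusion differed between the times of day in wild-type hearts. At ZT12, 1 of the 38 genes, Ier3, rose relative to ZT0 and 0 fell. Over all genes, 0.645% rose and 0.482% fell at a limma adjusted p under 0.05 (Benjamini-Hochberg over 22180 genes). Ier3 averaged 6.81 ± 0.22 (SD, n = 7) at ZT0 and 7.32 ± 0.23 (n = 7) at ZT12, 1.43-fold higher, a log2 difference of 0.51 (SE 0.11, limma adjusted p = 0.0224). The call was lost, at adjusted p up to 0.0564, when ZT0 replicate 2 or 4 or ZT12 replicate 2, 4 or 6 was left out. Groups that did not overlap were found for 0 of the 38 genes and for 0.902% of all genes. The largest difference of the 38 was that of Tnfaip3, -0.55, which did not pass (SE 0.22, limma adjusted p = 0.315). Csrnp1 differed by 0.33, Klf10 by 0.32, and Fos differed by -0.07 (SE 0.21). Differences were positive for 25 of 38 genes and for 48.8% of all genes, with a median of 0.10 against -0.0035 over all genes. When single hearts were left out, the median of the 38 ran from 0.02 to 0.19. The 38 vary together between hearts, as described further on, so their signs are not independent. An unadjusted p under 0.05 was found for 3 of 38 and for 11.5% of all genes.

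The second comparison asked what loss of Rev-erb alpha changed at ZT12. Of the 38 genes, Nr4a3 fell in the knockout and 0 rose, where 0.289% of all genes fell and 0.442% rose. Nr4a3 averaged 8.43 ± 0.32 (SD, n = 7) in wild type and 7.56 ± 0.58 (n = 5) in the knockout, 1.82-fold lower, a log2 difference of -0.87 (SE 0.20, limma adjusted p = 0.0442). This call was close to the threshold: it was lost in 14 of the 19 fits that each left out 1 heart, at adjusted p up to 0.117, and with only the 2 groups in the fit (0.146). Without the 4 hearts low in Sln, 3 of which are knockout hearts, the difference was -1.07 with an adjusted p of 0.187. Groups that did not overlap were found for 0 of the 38 genes and for 1.4% of all genes.

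Myc was next, lower by a log2 difference of -0.62 that did not pass (SE 0.22, limma adjusted p = 0.2504). Over the 19 fits that each left out 1 heart, the Myc difference ran from -0.88 to -0.47, at limma adjusted p from 0.0152 to 0.475. The lowest adjusted p came without knockout replicate 1, the high heart, so that fit leaves out the heart that opposed the difference. Klf10, a factor induced by TGF-beta, differed by -0.46 (0.236) and Gadd45b, a stress sensor, by -0.45 (0.476), with adjusted p-values in brackets. Fos differed by 0.16 (SE 0.23, limma adjusted p = 0.870). Differences were positive for 12 of 38 genes, against 49.0% of all genes, with a median of -0.13 against -0.0030 over all genes. Leaving out single hearts moved the median of the 38 between -0.22 and -0.08, and here too the signs are not independent. An unadjusted p under 0.05 was found for 6 of 38 and for 10.6% of all genes.

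Between knockout hearts at ZT12 and wild-type hearts at ZT0, 0 of the 38 genes passed, against 0.965% of all genes higher and 0.379% lower by limma, and 3 of 38 had an unadjusted p under 0.05, against 12.6% of all genes. Groups that did not overlap were found for 0 of the 38 genes and for 1.72% of all genes. The largest differences were those of Nr4a3 (-0.61, limma adjusted p = 0.162), Socs3 (-0.39), Tnfaip3 (-0.39) and Atf3 (-0.36), and Fos differed by 0.09. This comparison shares its knockout hearts with the second and its ZT0 hearts with the first, so the 3 comparisons are not independent.

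**Figure D2:**
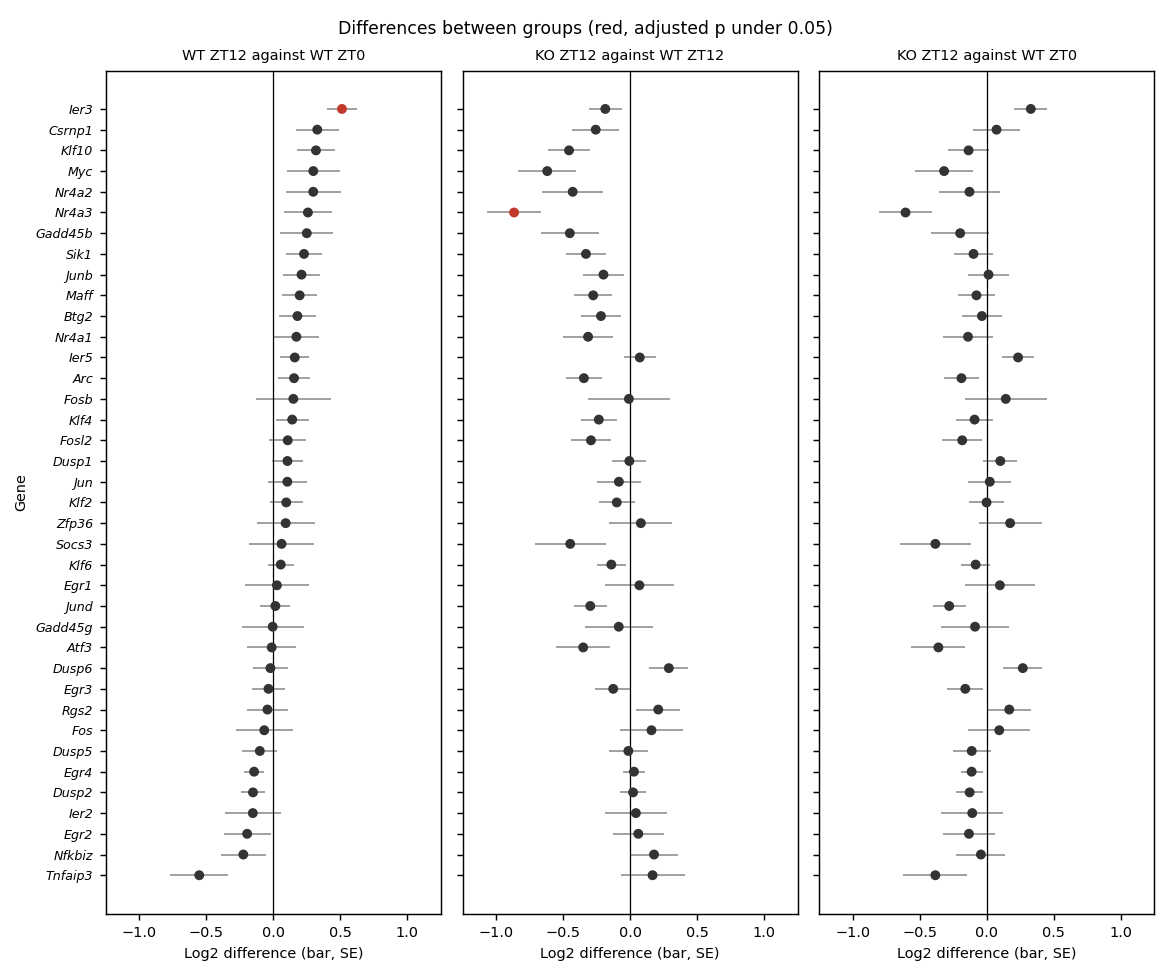
Log2 differences of group means (horizontal axis; bar, SE) of the 38 genes (vertical axis) in the 3 comparisons, with genes at a limma adjusted p under 0.05 in red. Red marks Ier3 in the first panel (0.51) and Nr4a3 in the second (-0.87), and none in the third.

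Most of these genes rose and fell together from heart to heart within a group. Deviations of each heart from its group mean were used, so that differences between groups play no part. In WT ZT12 replicate 5, 36 of the 38 genes were below the group mean, with a median deviation of -0.56. In knockout replicate 3, 33 were below (median -0.48), in WT ZT12 replicate 2, 36 were above (0.41), and in knockout replicate 1, 33 were above (0.26). At ZT0 the hearts were closer together, with medians from -0.23 in replicate 2 to 0.18 in replicate 3. The median deviation over all genes was between -0.01 and 0.01 in every heart, which RMA, as a method that equalises arrays, and the centring on group means bring about by themselves. Dusp2 went the other way in WT ZT12 replicate 5, where it was at its highest of the group, 4.54.

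**Figure D3:**
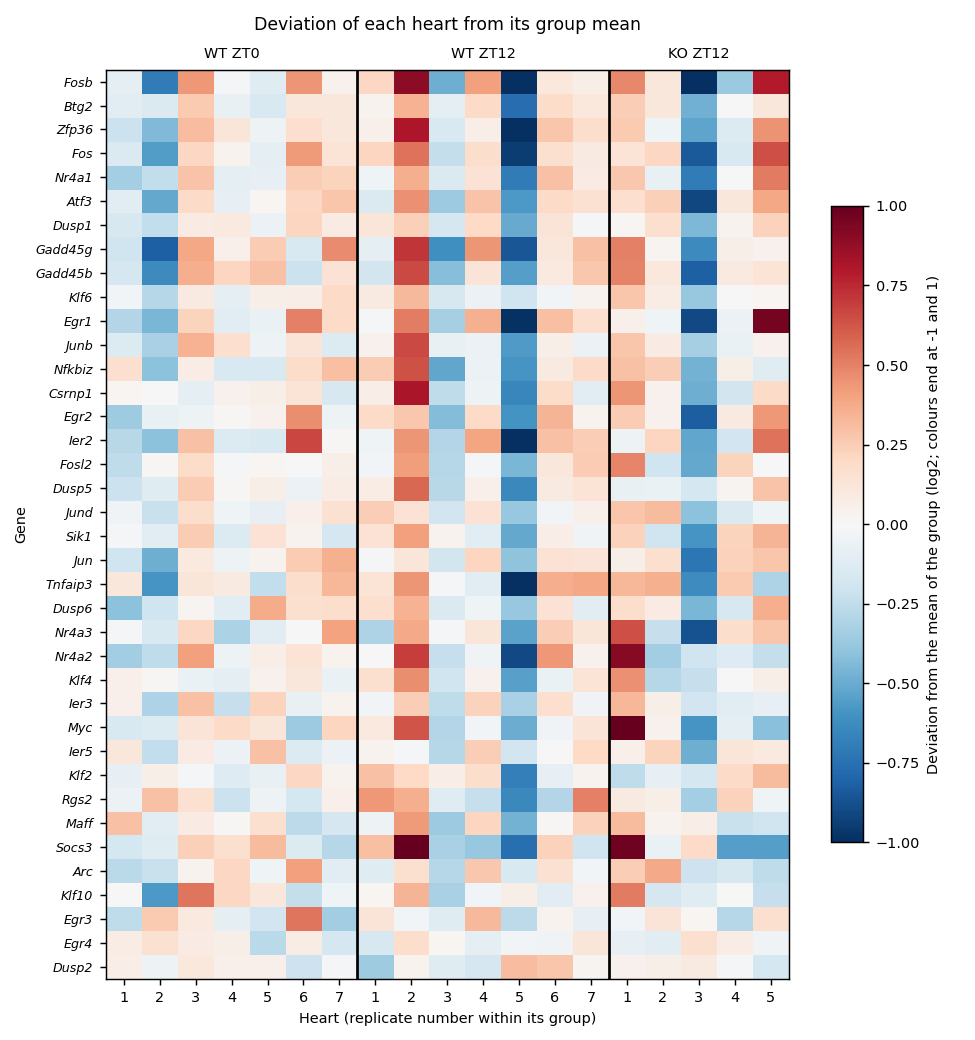
Deviation of each of the 19 hearts (columns, by group and replicate number) from its group mean for the 38 genes (rows), in log2 units, blue below and red above the mean, with colours ending at -1 and 1. WT ZT12 replicate 5 (median -0.56) and knockout replicate 3 (-0.48) are blue over nearly all rows, and WT ZT12 replicate 2 (0.41) is red.

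Over the 703 pairs of genes the median Pearson correlation of deviations was 0.603, against 0.002 over all pairs of genes on the array. A correlation over 0.8 was found for 89 pairs (12.7%, against 0.0125% of all gene pairs), and 62 pairs were below 0. All gene pairs include dim genes: 13121 of the 22180 genes remained with these left out, and all 38 members were among them. Pairs among genes of like brightness were not tabulated. The first principal component of the standardized deviations held 59.8% of their variance, and 36 of the 38 genes loaded on it with the same sign. The exceptions were Egr4 and Dusp2. The second held 10.8% and set Klf10, Dusp2, Socs3, Myc and Maff at the positive end against Klf2, Egr3 and Egr1 at the negative end. Knockout replicate 5 had the lowest score on it: it held the highest Fos (8.86) and Egr1 (9.04) of all hearts together with the lowest Klf10 of its group (5.32) and the lowest Socs3 (4.50). By role, the growth arrest and mRNA decay genes Btg2, Zfp36, Gadd45b and Gadd45g had a median correlation of 0.813, the AP-1 subunits 0.716 and the NR4A receptors 0.687. The EGR factors (0.265) and the dual-specificity phosphatases (0.219), which remove phosphate from MAP kinases, had lower medians, and each includes 1 of the genes that loaded negatively. These correlations are over 19 hearts and share the arrays.

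**Figure D4:**
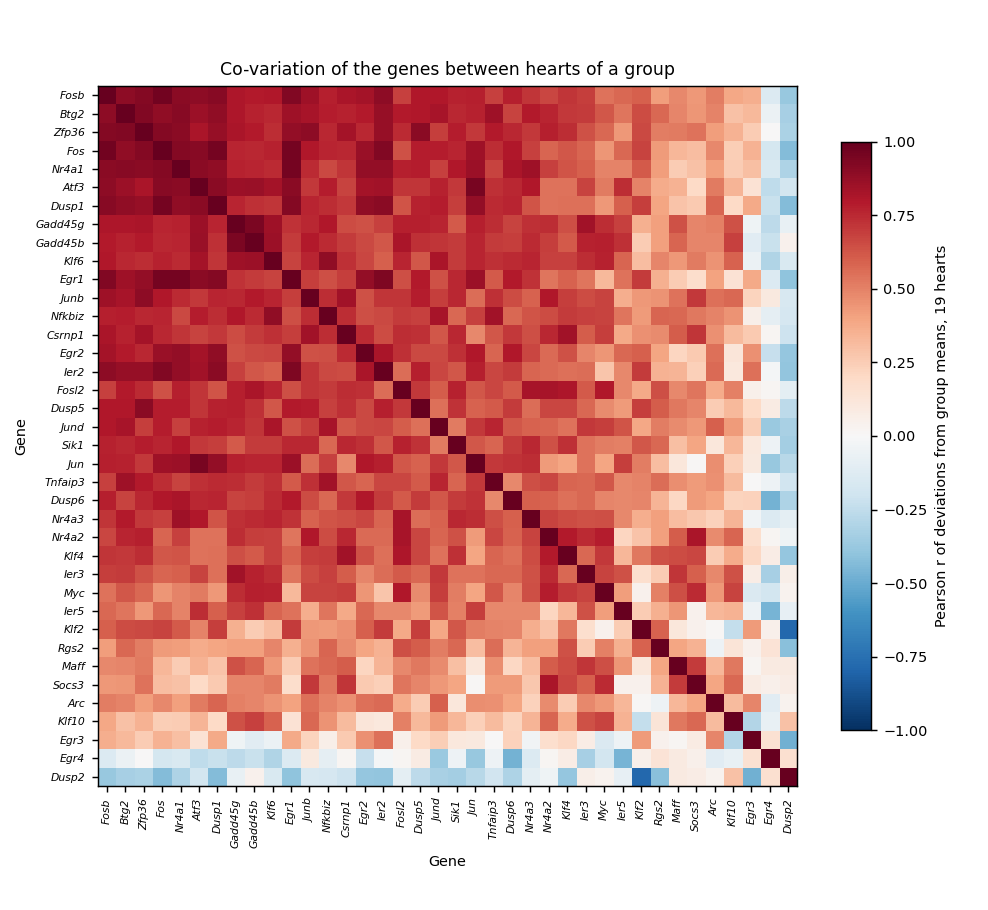
Pearson correlation of the deviations from group means over 19 hearts for every pair of the 38 genes, blue below and red above 0. Most of the map is red (median 0.603), apart from the rows of Egr4 and Dusp2.

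With group in the model, 12 of 37 genes rose with Fos at a limma adjusted p under 0.05, against 0.0902% of all genes rising and 0.00902% falling, 22 genes in all, and 0 of the 37 fell. Fosb followed Fos most closely, with Pearson r = 0.969 and Spearman rho = 0.949 of the deviations (permutation p = 1e-05 within groups for each, the smallest the 100000 permutations can give) and a slope of 1.29 per log2 unit of Fos (SE 0.09, limma adjusted p = 8.17e-08). Dusp1, which encodes a nuclear MAP kinase phosphatase, had r = 0.961 and rho = 0.923, with a slope of 0.50 (SE 0.06). Egr1 had r = 0.956 and rho = 0.902, with a slope of 1.07 (SE 0.09). The others called were Ier2, Nr4a1, Zfp36 (which encodes tristetraprolin, an mRNA decay factor), Atf3, Btg2, Egr2, Jun, Dusp6 and Junb, with r from 0.799 upward. Correlations were positive for 35 of the 37.

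The hearts farthest in Fos were knockout replicate 3 and WT ZT12 replicate 5. Without these 2 hearts, r of the 12 genes lay between 0.665 and 0.940. Within ZT0 alone it lay between 0.455 and 0.964, and within wild type at ZT12 between 0.883 and 0.979, while 5 knockout hearts are too few for a value of their own. The count of called genes was 5 without the 4 hearts low in Sln and 8 without knockout replicate 3. The correlation of Sln itself with Fos was -0.048, and that of the mean of the 5 atrial markers was 0.134. Slopes of the 5 on Fos ran from -0.21 to 2.10, positive for 3 of 5, and 0 passed by limma. Nr4a3 (r = 0.680), Myc (0.444) and Socs3 (0.309) did not pass, and had r of 0.355, 0.129 and 0.232 without the 2 hearts. The list means of cell type markers correlated with Fos between -0.420 for macrophages and 0.272 for endothelial cells, over 19 hearts, and their part in the result was not tested.

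**Figure D5:**
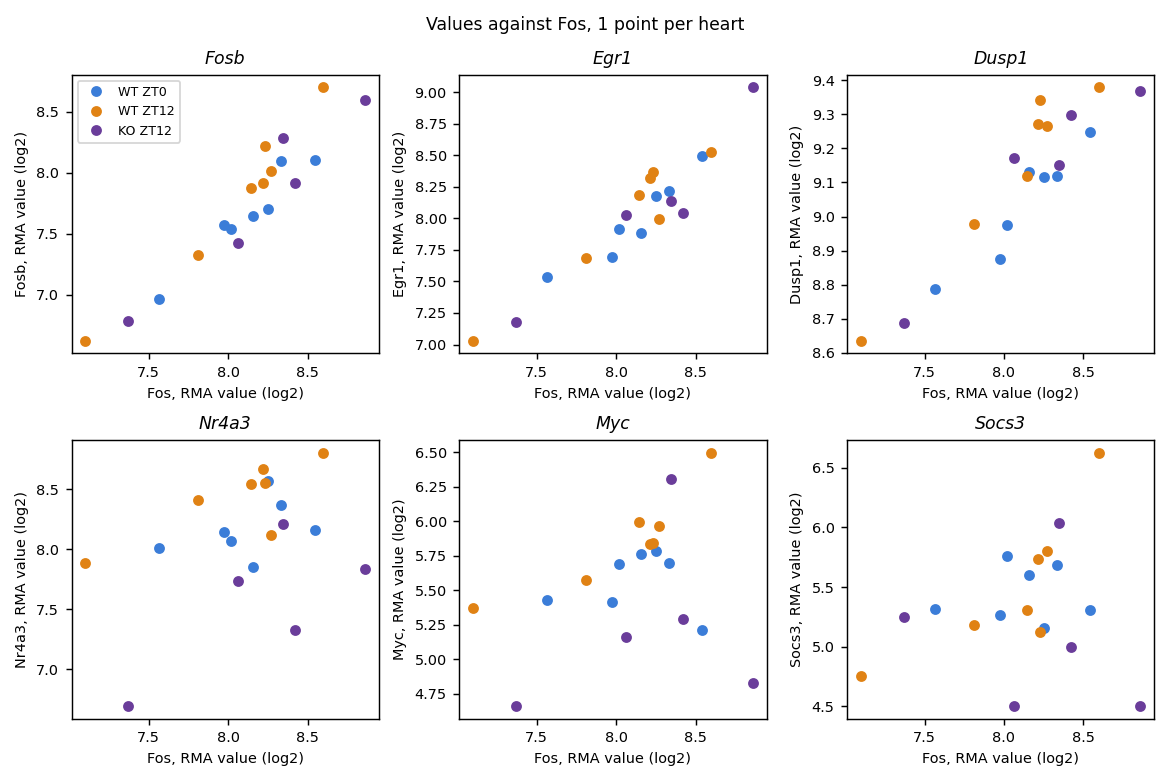
RMA values (log2) of 6 genes, vertical axes, against Fos, horizontal axes, with 1 point per heart coloured by group. Fosb, Egr1 and Dusp1 lie along a line (r of deviations 0.969, 0.956 and 0.961); in Nr4a3 the knockout hearts lie mostly below the wild-type hearts of like Fos level.

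Because hearts differed so widely in the level these genes share, the groups were also compared at equal Fos, with Fos as a covariate. This fit was chosen after the values had been seen. Fos is itself an outcome measured here, and the same slope was used for all groups. Its own difference in the knockout against ZT12 ran from -0.0022 to 0.37 when single hearts were left out. Whether equal Fos matched the groups in other respects was not tested. In the knockout against wild type at ZT12, 3 of 37 genes were then lower, where 0.361% of all genes were. The genes were also lower as a set in this fit. Their median difference was -0.22, against -0.13 for the 38 genes without Fos as a covariate. Nr4a3 differed by -0.96 (SE 0.15, limma adjusted p = 0.00334), Atf3 by -0.48 (SE 0.10, 0.0224) and Nr4a1 by -0.43 (SE 0.09, 0.0220). Leaving out each heart in turn kept the call of Nr4a3 in 19 of 19 fits, with adjusted p up to 0.0397. Atf3 was lost in 4 of those fits, without WT ZT12 replicate 2 or 4 or knockout replicate 3 or 5, with adjusted p up to 0.156. Nr4a1 was lost in 2, without knockout replicate 2 or 3, with adjusted p up to 0.123. Against wild type at ZT0, 2 of 37 were lower at equal Fos, where 0.446% of all genes were: Nr4a3 by -0.66 (limma adjusted p = 0.0330) and Atf3 by -0.43 (0.0251). Leaving out single hearts ended the call of Nr4a3 in 8 of 19 fits, without ZT0 replicate 1, 2, 3, 5 or 7 or knockout replicate 2, 3 or 5, at adjusted p up to 0.164. It ended that of Atf3 in 3, without ZT0 replicate 5 or knockout replicate 3 or 5, at up to 0.130. Without the 4 hearts low in Sln, which leaves 2 knockout hearts, none of these calls held, with differences of -0.80 for Nr4a3, -0.49 for Atf3 and -0.38 for Nr4a1 against wild type at ZT12 (adjusted p from 0.323 to 0.499). Sln was low in 3 of 5 knockout hearts and in 1 of 7 wild-type hearts at ZT12. All 5 atrial markers averaged lower in the knockout than in wild type at ZT12, with a median difference of -1.61. The part of atrial tissue in the lower Nr4a3 was not tested.

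Of the kinases and factors upstream of these genes, 27 were listed, 20 of them were measured, and 0 passed by limma in any comparison or with Fos. At an unadjusted p under 0.05 there were 4 in wild type between the times, 0 and 4 for the knockout against ZT12 and ZT0, and 2 with Fos, of 20 each. Over all genes the shares were 11.5%, 10.6%, 12.6% and 8.67% in that order. The smallest p in wild type between the times belonged to Mrtfb, a coactivator of serum response factor (0.25, limma adjusted p = 0.125). Elk4, a ternary complex factor, had the smallest p with Fos (r = 0.712, limma adjusted p = 0.352). Of 40 further rapidly induced genes, 39 were measured, and 3 rose with Fos, against 0.0902% of all genes. They were Ppp1r15a, which encodes GADD34, Hes1, a Notch-responsive repressor, and Plk3, a stress kinase, with r of 0.848, 0.866 and 0.821. With Fos, 19 of 39 had an unadjusted p under 0.05, against 8.67% of all genes. In this list 0 passed between the wild-type groups, where Cebpb and Mcl1 came closest (limma adjusted p = 0.0651 and 0.0853) and 9 of 39 had an unadjusted p under 0.05, against 11.5% of all genes. In the knockout against wild type at ZT12, 0 passed and 10 of 39 had an unadjusted p under 0.05, against 10.6% of all genes, with Adamts1, a secreted protease, closest at -0.69 (limma adjusted p = 0.0508). Cebpb, a factor of inflammation and metabolism, was higher in the knockout than in wild type at ZT0 by 0.69 (limma adjusted p = 0.00364). It was the 1 of 39 that passed there, where 0.965% of all genes were higher and 0.379% lower. In that comparison 7 of 39 had an unadjusted p under 0.05, against 12.6% of all genes.

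Among named genes outside the listed symbols, those most like Fos over the 19 hearts were Hes1, Idh2, Ppp1r15a, Mtfr2, Mafk, Gja1, Plk3 and Mob3c, with r of deviations from 0.866 down to 0.821. Idh2, the mitochondrial isocitrate dehydrogenase, and Gja1, the gap junction protein connexin 43, varied little between hearts (SD 0.08 and 0.11). The most opposed were Timm8b (-0.842), Itgbl1 (-0.813), Tstd3 (-0.810) and Mrps22 (-0.810). These genes were picked from 22179 for their correlation, so the values are a description.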

How the data were processed

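The deposited values are log2 summaries per probe set from RMA, run by the authors per the submitters' processing notes. The sources used here give no version of it, and the log2 scale was taken from the values (0.21 to 12.88). Of 41345 probe sets, 23521 list 1 gene in the platform annotation, which can be old, and the brightest was kept where a gene had several (1082 genes). The 16010 that list no gene and the 1814 that list several were left out.

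Group comparisons used limma 3.58.1 (R 4.3.3) with 1 mean per group over 19 arrays, two-sided tests and Benjamini-Hochberg adjustment over 22180 genes. A second model added Fos as a covariate, and its slope tested variation with Fos. Correlations used deviations from group means, permuted within groups 100000 times. The fits were also run on simulated data with known shifts and slopes. Genes were drawn independently there, so this does not check calls among genes that vary together. Promoter windows came from RefSeq, GRCm38.p6.

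The members and lists were chosen with earlier results of these data known. Members named with their values were the 7 best-known (Fos, Fosb, Jun, Junb, Egr1, Atf3, Nr4a1), those called in a comparison, the 4 largest differences per comparison, and the 5 largest and 3 smallest SDs; from each other list, up to 4 called genes or the 2 with the smallest p; and the 8 highest and 4 lowest correlations with Fos among other genes. Egr2, Dusp1 and others outside this rule were chosen after their values were seen. Labels call replicates biological and name no batch. Replicate numbers did not pair hearts, with correlations of -0.07 to 0.07 between hearts of the same number.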

Additional observations from a re-analysis of the deposited data

Results flagged for a closer look

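In each group of each gene, the highest and the lowest heart were set against the rest by the gap to the nearest heart over the whole range (Dixon's 95% critical value). Of 114 combinations of gene and group, 7 had such a heart. Chance gives about 1 in 20, so 7 of 114 is near that share. In WT ZT12 replicate 5, Klf2 (5.76), Btg2 (7.95) and Tnfaip3 (3.61) lay far below the other hearts of the group. In knockout replicate 3, Jun (9.37), Atf3 (8.34) and Ier5 (6.22) did. In knockout replicate 1, Nr4a2 lay far above, at 7.198. These are the hearts whose immediate early genes were shifted together, so the 7 are not independent.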

How the results depend on the processing

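The count of genes called between the wild-type groups (1) became 0 with a replicate block, where Ier3 had an adjusted p of 0.0880, and ran from 0 to 1 when single hearts were left out. That between knockout and wild type at ZT12 (1) became 0 with arrays centred on their medians, with trend and robust eBayes, with a replicate block (Nr4a3 adjusted p = 0.174), with only the 2 groups, without the 4 hearts low in Sln, and with Fos as a covariate without those hearts. It was 3 with Fos as a covariate and ran from 0 to 2 without single hearts. That between knockout and wild type at ZT0 (0) became 2 with Fos as a covariate and was 0 to 0 without single hearts. Genes rising with Fos (12) were 19 with dim genes left out, 19 with trend and robust eBayes, 5 without the 4 hearts low in Sln, 8 with a replicate block, and 8 to 16 without single hearts. The cause was not tested.

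Fos changed sign without the 4 hearts low in Sln, to 0.0909 between the wild-type groups, -0.35 in the knockout against ZT12 and -0.26 against ZT0. Socs3 in the knockout against ZT0 then became 0.20, and 0.39 with Fos as a covariate as well. Without single hearts Fos ran from -0.16 to 0.0909, from -0.0022 to 0.37 and from -0.0697 to 0.30 in the 3 comparisons. Settings were tabulated for the differences the text gives, a choice made after a first tabulation over all named genes had shown many small differences changing sign. Over all 38 genes, 12, 18 and 23 changed sign under some setting in the 3 comparisons, so the signs of small differences, and the counts of positive and negative ones, are not settled. The median pairwise correlation stayed between 0.504 and 0.650, and the median SD between 0.28 and 0.30, when single hearts were left out. The fit at equal Fos and those without the hearts low in Sln were added after seeing the data.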
